A study of Mus musculus with 6 samples.

Results

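The MHC class I presentation genes examined here are 9 genes of mouse CD4+ T cells, taken by symbol from a table of 35602 genes. They encode heavy chains (*H2-K1*, *H2-D1*, *H2-T23*), the shared light chain (*B2m*), the peptide transporter (*Tap1*, *Tap2*), the loading bridge (*Tapbp*), a transactivator (*Nlrc5*) and a trimming peptidase (*Erap1*). All 9 were found in each table and all 9 passed the filter on low counts.

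Class I molecules carry peptides from inside the cell to its surface, where CD8 T cells inspect them, and nearly every nucleated cell makes them, T cells included. The proteasome cuts proteins into peptides, the TAP transporter moves these into the endoplasmic reticulum, peptidases trim them, and tapasin with its helpers loads them onto a heavy chain held by beta2-microglobulin. NLRC5, together with the RFX, NF-Y and CREB/ATF factors, and interferon signalling drive transcription of many of these genes.

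The study asked what a MAPK13 inhibitor does to gene expression in activated helper T cells. Wild-type splenic CD4+ T cells, of a strain that the labels leave out, were stimulated through CD3 and CD28 for 72 h with MAPK13-IN-1 at 17.1 µM or with the solvent DMSO. Labels of replicates 2 and 3 place the addition of inhibitor or solvent after day 1, and those of replicate 1 give no genotype, dose or time. Each group had 3 libraries made by 2 protocols, a stranded kit for replicate 1 and poly-T beads for replicates 2 and 3. Whether replicates came from separate animals or cultures is not given, so p-values measure the spread between these libraries, which may be technical.

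Replicates 2 and 3 form a count table with totals of 26874805 and 28487403 reads in DMSO and 33854760 and 32617702 with the inhibitor. Levels are given as CPM, read counts relative to the TMM-scaled library size, and changes as log2 fold change, inhibitor over DMSO, with the standard error (SE) and the p-value of edgeR's quasi-likelihood test adjusted over 16269 genes tested. The replicate 1 pair holds values read as FPKM, with 1 library per group, unknown depth and no test. Its log2 ratios are on the log2(FPKM + 1) scale.

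T cell markers were abundant, as the CD4 label requires. *Cd4* itself had 275 and 276 CPM in DMSO and 267 and 283 CPM with the inhibitor, so the groups overlapped (edgeR adjusted p = 0.993). Of 8 CD4 T cell markers tested, 6 fell and 0 rose (1 with library totals). Their median log2 fold change was -0.95, beside 0.01 for all genes tested and -0.53 for the class I members. Those with the smallest p-values were *Lck* (-1.20), *Cd3g* (-1.56), *Cd5* (-1.29) and *Cd3e* (-1.37). The 8 markers summed to 1925 and 1958 CPM in DMSO and 1184 and 1307 CPM with the inhibitor. *Cd5* was the most abundant of them in both DMSO libraries. The replicate 1 pair had 4 of the 8 higher with the inhibitor (2 with each library divided by its median), with sums of 1112 and 1028 FPKM. B cell genes were present as well. Their 10 matched markers summed to 1136 and 1110 CPM in DMSO and 1333 and 1356 CPM with the inhibitor, none was at 0, and *Pax5* was the most abundant with the inhibitor. In the replicate 1 pair the same markers summed to 54.3 FPKM in DMSO and 37.8 FPKM with the inhibitor.

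*Mapk13*, which encodes the kinase that the inhibitor is named for, had few reads. It had 79 and 74 counts in DMSO and 21 and 51 with the inhibitor, and 0.191 and 3.28 FPKM in the replicate 1 pair. The log2 fold change was -1.47 (SE 0.36, edgeR adjusted p = 0.0049). *Mapk13* was thus lower with the inhibitor in the count table and higher in the pair.

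In the count table the heavy chains fell, by log2 values of -0.94 to -1.20, while the light chain did not pass the test. Of the 9 genes, 6 fell, 1 rose and 2 did not pass the test, against 63.8% of all genes tested that changed in either direction, 32.3% that fell and 31.5% that rose. The members' median log2 fold change was -0.53, and that of all genes tested was 0.01. With so many genes changed in these libraries, a call alone says little about a member. Lack of overlap says little too, as 2 libraries against 2 cannot give an exact permutation p, in either direction, below 0.333. The sizes below carry the description. Scaling by library totals alone moved the median of all genes from 0.01 to 0.14 and the split of calls from 5122 higher and 5252 lower to 6176 higher and 4302 lower. In bulk RNA, fewer cells of a type and less RNA per cell cannot be told apart.

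**Figure D1:**
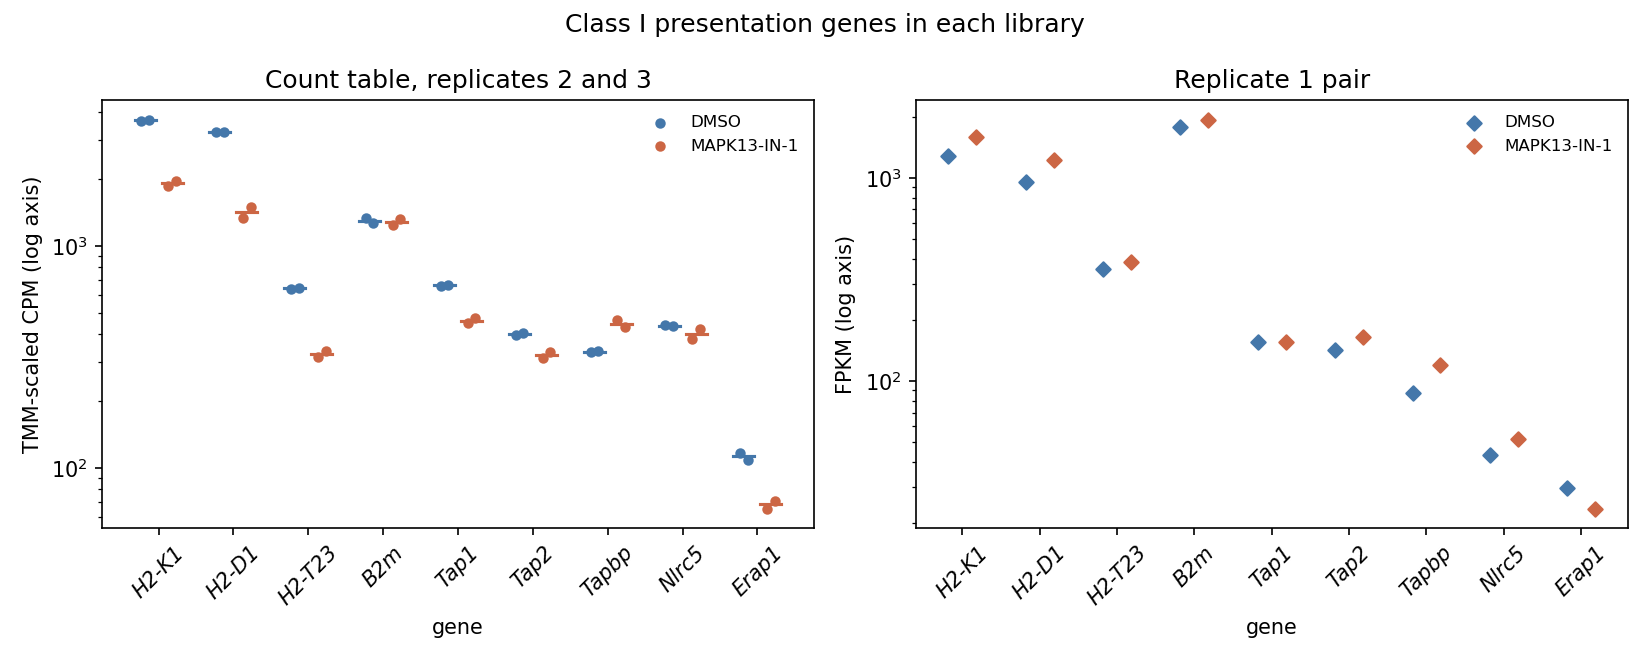
Levels of the 9 genes in each library on log axes: on the left TMM-scaled CPM of the count table (points, libraries; lines, means of 2), on the right FPKM of the replicate 1 pair (1 library per group). *H2-K1*, *H2-D1* and *H2-T23* lie lower with the inhibitor on the left and higher on the right, and *B2m* overlaps between groups on the left, where its direction flips with scaling.

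*H2-K1*, a classical heavy chain, had 3667 and 3694 CPM in the DMSO libraries and 1857 and 1970 CPM in the inhibitor libraries. Both inhibitor libraries lay far below both DMSO libraries. The log2 fold change was -0.94 (SE 0.05, edgeR adjusted p = 1.08e-07), lower in 2 of 2 inhibitor libraries, and the mean fell by 48.0%. *H2-D1*, also a classical heavy chain, had 3253 and 3272 CPM in DMSO and 1336 and 1503 CPM with the inhibitor. It showed the largest fall of the 9 genes, again with no overlap, at a log2 fold change of -1.20 (SE 0.06, edgeR adjusted p = 9.9e-08).

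*H2-T23* encodes Qa-1, a nonclassical heavy chain read by CD94/NKG2 receptors. Its levels were 638 and 648 CPM in DMSO and 316 and 335 CPM with the inhibitor. The groups did not overlap, and the log2 fold change was -0.98 (SE 0.05, edgeR adjusted p = 1.89e-07). These heavy chains are near-identical in parts, and how reads shared among them were assigned is not given in the sources used here, so each single value is uncertain. The sum over 19 heavy chain genes of the table, which a split of reads among these genes leaves as it is but reads dropped or given to other genes would change, was 9365 and 9460 CPM in DMSO and 4767 and 5154 CPM with the inhibitor.

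*B2m*, the light chain without which heavy chains do not reach the surface, stood apart from them. It had 1330 and 1270 CPM in DMSO and 1244 and 1317 CPM with the inhibitor, and the groups overlapped. Its log2 fold change was -0.02 (SE 0.05, edgeR adjusted p = 0.711), and the sign flipped to 0.06 with upper quartile scaling and 0.10 with library totals. A ratio within a library does not depend on scaling. Reads of *H2-K1* and *H2-D1* together were 5.20 and 5.48 times those of *B2m* in DMSO and 2.57 and 2.64 times with the inhibitor. This ratio thus moved by -1.04 on the log2 scale with no overlap, although 2 libraries against 2 cannot give a two-sided exact permutation p below 0.333.

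The transporter subunits fell less than the heavy chains. *Tap1* had 658 and 668 CPM in DMSO and 447 and 472 CPM with the inhibitor, and *Tap2* had 396 and 404 CPM in DMSO and 311 and 334 CPM with the inhibitor. Neither gene overlapped between groups. The log2 fold change was -0.53 for *Tap1* (SE 0.05, edgeR adjusted p = 8.59e-06) and -0.31 for *Tap2* (SE 0.05, edgeR adjusted p = 0.000569). As TAP works as a dimer of both products, their read ratio was also taken, and *Tap1* reads were 1.66 and 1.66 times those of *Tap2* in DMSO and 1.44 and 1.42 times with the inhibitor.

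*Tapbp*, which encodes tapasin, was the 1 member that rose. It had 331 and 336 CPM in DMSO and 463 and 429 CPM with the inhibitor, with both inhibitor libraries above both DMSO libraries. The log2 fold change was 0.42 (SE 0.06, edgeR adjusted p = 7.55e-05). *Erap1*, the endoplasmic reticulum aminopeptidase that trims peptides, had 116 and 109 CPM in DMSO and 65.5 and 71.2 CPM with the inhibitor. It fell with no overlap, at a log2 fold change of -0.72 (SE 0.07, edgeR adjusted p = 8.62e-06).

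*Nlrc5*, the class I transactivator, had 438 and 436 CPM in DMSO and 379 and 422 CPM with the inhibitor. On this scale both inhibitor libraries were lower, but the log2 fold change of -0.13 (SE 0.06, edgeR adjusted p = 0.0865) did not pass the test, and it was -0.046 with upper quartile scaling and -0.0018 with library totals. It passed with a replicate block (-0.13, edgeR adjusted p = 0.0400) and without inhibitor replicate 3 (-0.21, edgeR adjusted p = 3.04e-06), where the lone inhibitor library is assumed to vary like the DMSO pair.

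In the replicate 1 pair the heavy chains were not lower. *H2-K1* stood at 1287 FPKM in DMSO and 1591 FPKM with the inhibitor, *H2-D1* at 951 and 1233 FPKM, and *H2-T23* at 356 and 388 FPKM. *B2m* stood at 1781 and 1931 FPKM. So every heavy chain member was higher in the inhibitor library of this pair, with log2 ratios of 0.31, 0.37 and 0.12, and *B2m* was at 0.12. With each library divided by its median, *H2-T23* was at 0.022 and *B2m* at 0.015, close to 0. *Tap1* stood at 156 and 157 FPKM, *Tap2* at 142 and 165 FPKM, and *Nlrc5* at 43.2 and 51.9 FPKM. *Tapbp* at 87.2 and 121 FPKM and *Erap1* at 29.9 and 23.6 FPKM kept the directions of the count table. The FPKM of *H2-K1* and *H2-D1* together were 1.26 times that of *B2m* in DMSO and 1.46 times with the inhibitor, opposite to the count table. Of the 6 members that fell in the count table, 5 were higher with the inhibitor in the pair. With no call required, 4343 genes lay lower in the count table without overlap and had at least 1 FPKM in both pair libraries. Of these, 1769, or 40.7%, were higher in the pair without further scaling, so the contrast is common among such genes. They include falls of any size. *Nlrc5*, which was not called, also lay lower without overlap and was higher in the pair. Protocol, deposited unit and replicate cannot be told apart here, and the difference between the library sets was not tested.

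**Figure D2:**
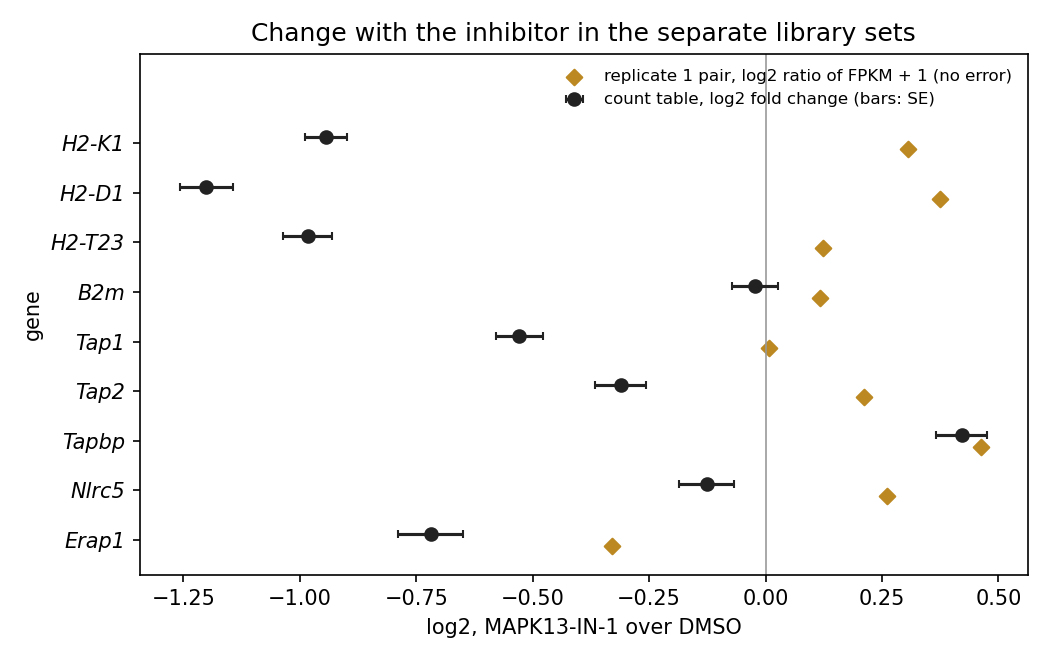
Change with the inhibitor for each gene, on a log2 axis: circles, count table (2 libraries per group, bars are SE); diamonds, replicate 1 pair (log2 ratio of FPKM + 1, no error). *Tapbp* lies right of 0 and *Erap1* left of 0 in both sets, the heavy chains lie on opposite sides, and *B2m*, at -0.02 in the count table, flips sign with scaling.

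Per length, *B2m* was the most abundant member in every condition. CPM per kilobase of merged exons in DMSO were 1512 ± 49.4 (SD, n = 2) for *B2m*, 1265 ± 5.09 for *H2-D1* and 1253 ± 6.49 for *H2-K1*. Then came *H2-T23* at 223 ± 2.44, *Tap1* at 121 ± 1.31, *Tap2* at 106 ± 1.32, *Tapbp* at 91.9 ± 0.915, *Nlrc5* at 51.5 ± 0.186 and *Erap1* at 15.4 ± 0.695. No neighbours in this DMSO order overlapped between the 2 libraries, but the DMSO library of the replicate 1 pair had *H2-K1* at 1287 FPKM above *H2-D1* at 951 FPKM, so the order of these is uncertain. With the inhibitor *B2m* stayed at 1489 ± 60.2, while *H2-K1* was at 651 ± 27.2 and *H2-D1* at 550 ± 45.8. *Tapbp* at 123 ± 6.51 stood above *H2-T23* at 113 ± 4.82, and *Tap2* at 85.3 ± 4.14 and *Tap1* at 83.9 ± 3.29 overlapped. The inhibitor library of the replicate 1 pair had the opposite order, with *H2-T23* at 388 FPKM above *Tapbp* at 121 FPKM. *Nlrc5* at 47.2 ± 3.61 and *Erap1* at 9.38 ± 0.554 were the lowest, as they also were in the replicate 1 pair.

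Of the 9 genes, 6 lie on chromosome 17 (GRCm38, GENCODE M21), where the major histocompatibility complex is. *Tapbp* spans chr17:33915899-33929292, *H2-K1* chr17:33996017-34000347, *Tap1* chr17:34187553-34197225 and *Tap2* chr17:34203527-34216321. *H2-D1* spans chr17:35262730-35267499 and *H2-T23* chr17:36029773-36032855. The gene that rose, *Tapbp*, is the member nearest to *H2-K1*, which fell. Outside the complex lie *B2m* at chr2:122147686-122153083, *Nlrc5* at chr8:94434356-94527272 and *Erap1* at chr13:74639568-74693201.

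Promoter windows of 300 bases (RefSeq, GRCm38.p6) matched 7 of the 9 genes; *Tap2* and *Nlrc5* had none. Motifs were searched on both strands. CCAAT, the letters that NF-Y binds, was in windows of 6 of the 7 genes and in 37.4% of all 32851 windows, and the interferon regulatory factor core AANNGAAA in 5 of 7 and 23.9%. TGACG, a core of CREB/ATF sites, was in 4 of 7 and 20.8%. The NF-kB consensus was in 3 of 7 (*B2m*, *H2-D1* and *H2-K1*) and 8.46%, and the STAT motif TTCNNNGAA in 0 of 7 and 8.30%. The windows of *H2-K1* and *H2-D1* aligned over 228 bases with 90.4% identity. Windows of these genes, which fell, and of *B2m*, which did not pass the test, are shown 5′ to 3′ with all motif matches in capitals, from chr17:34000298-34000597 (minus strand), chr17:35262844-35263143 and chr2:122147437-122147736 (plus strand).
H2-K1: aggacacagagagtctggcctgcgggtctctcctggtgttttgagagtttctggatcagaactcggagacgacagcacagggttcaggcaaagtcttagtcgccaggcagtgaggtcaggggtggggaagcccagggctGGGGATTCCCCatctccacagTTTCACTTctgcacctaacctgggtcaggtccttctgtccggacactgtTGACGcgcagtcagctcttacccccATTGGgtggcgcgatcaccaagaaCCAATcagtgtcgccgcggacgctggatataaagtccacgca
H2-D1: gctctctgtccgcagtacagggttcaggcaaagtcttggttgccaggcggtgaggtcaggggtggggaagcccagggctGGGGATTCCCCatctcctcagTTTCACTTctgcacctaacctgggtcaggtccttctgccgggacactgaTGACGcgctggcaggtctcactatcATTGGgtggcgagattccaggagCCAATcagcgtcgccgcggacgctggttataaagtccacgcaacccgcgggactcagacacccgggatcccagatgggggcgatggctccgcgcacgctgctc
B2m: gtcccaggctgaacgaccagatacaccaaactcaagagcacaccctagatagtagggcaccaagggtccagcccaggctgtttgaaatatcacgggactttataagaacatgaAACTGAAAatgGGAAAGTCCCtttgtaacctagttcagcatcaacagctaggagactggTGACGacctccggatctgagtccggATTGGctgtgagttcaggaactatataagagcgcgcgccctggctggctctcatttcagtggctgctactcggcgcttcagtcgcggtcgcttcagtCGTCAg
In both heavy chain windows, 2 NF-kB matches overlap each other and lie just before the interferon factor core. The *B2m* window holds the same kinds of motif, with the interferon factor core first, so these letters are shared by genes that differed in the count table.

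Of 20 other heavy chains listed, 16 were in the count table and 10 were tested, of which 8 fell (5 with library totals) and 1 rose, with a median log2 fold change of -0.58 beside 0.01 for all genes tested. Where each library of the replicate 1 pair reached 1 FPKM, 6 of 8, of which *H2-T10* is not in the count table, were higher with the inhibitor, beside 5675 of 10448 over all genes; with each library divided by its median these were 5 of 8 and 4840 of 10448. *H2-Q7* (-0.99), *H2-Q4* (-0.77), *H2-Q1* (-1.07) and *H2-T24* (-0.81) were among those that fell, and *H2-Q6* (0.15) was the gene that rose, a call lost when either DMSO library was left out (edgeR adjusted p = 0.253 without replicate 2 and 0.189 without replicate 3). Of 5 class I-like molecules tested, 2 rose and 2 fell (1 with library totals). *Mr1*, which presents vitamin B metabolites, rose by a log2 fold change of 0.60 and *Cd1d1*, which presents lipids, by 1.00. *Hfe* had 18 and 20 counts in DMSO and 2 and 2 with the inhibitor, and *Fcgrt*, whose log2 fold change was -0.96, lost its call in 5 of 11 alternatives and ran from -1.65 without inhibitor replicate 3 to -0.48 without inhibitor replicate 2.

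Loading helpers went both ways, with 2 of 6 higher, 3 lower and a median of -0.03, or 3 higher, 2 lower and a median of 0.09 beside 0.14 for all genes with library totals, while in the replicate 1 pair 6 (5 with each library divided by its median) were higher with the inhibitor, with a median log2 ratio of 0.29. The chaperone calreticulin (*Calr*) fell, with a log2 fold change of -1.05, as did the tapasin-related editor *Tapbpl* (-0.70) and *Uggt1* (-0.18, or -0.055 with no call under library totals), whereas the oxidoreductase *Pdia3* (0.69), a partner of tapasin, and *Bcap31* (0.39) rose. Of the 5 immunoproteasome genes, 4 fell (3 with library totals) and 1 rose. *Psmb8* rose (0.38) while *Psmb9* (-0.48), *Psmb10* (-0.95), *Psme2* (-0.33) and *Psme1* (-0.16) fell, though *Psme1* lost its call in 7 of 11 alternatives, with -0.031 under library totals. In the replicate 1 pair 2 of the 5 were higher with the inhibitor (1 with each library divided by its median), and *Psmb8* stood at 239 and 231 FPKM. Of the constitutive catalytic subunits, *Psmb5* (-0.67) and *Psmb6* (-0.29) fell and *Psmb7* (0.32) rose, while in the pair 1 of the 3 was higher (*Psmb6*). The log2 ratio of reads of the first 3 immunoproteasome genes to those of the 3 constitutive ones was 1.04 and 1.07 in DMSO and 1.11 and 1.22 with the inhibitor, so both inhibitor libraries lay slightly above both DMSO libraries. Of 7 cytosolic and endosomal peptidases, 4 rose and 1 fell, as *Erap1* did. *Lnpep* (0.88), *Npepps* (0.69), *Rnpep* (0.46) and *Tpp2* (0.40) were higher, and *Thop1* (-0.47) was lower. The number that fell grew when inhibitor replicate 2 was left out. In the replicate 1 pair 5 of the 7 were higher with the inhibitor (4 with each library divided by its median).

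Among 17 promoter factors, 8 rose (5 without DMSO replicate 2 and 6 without DMSO replicate 3) and 7 fell (5 with library totals), with a median of -0.0021 beside 0.01 for all genes tested, or 0.12 beside 0.14 with library totals. *Creb1* rose (0.77), and the NF-Y subunit *Nfya* (-0.86) and the NF-kB subunits *Nfkb1* (-0.78) and *Rela* (-0.82) fell, whereas *Rel* (0.59), also an NF-kB subunit, rose. Of 9 interferon signal genes tested, 3 rose (4 with library totals) and 4 fell. *Jak1* (0.59), *Ifnar1* (0.22) and *Ifnar2* (0.62) rose, and *Jak2* (-0.77), *Tyk2* (-0.65), the feedback inhibitor *Socs1* (-1.38) and *Ifng* (-1.03) fell. The *Ifnar1* call was lost when either DMSO library was left out, at 0.20 without replicate 2 and 0.22 without replicate 3. *Ifng*, which encodes interferon gamma, had 106 and 145 counts in DMSO and 74 and 86 with the inhibitor, and 16.4 and 92.6 FPKM in the replicate 1 pair. It was thus lower with the inhibitor in the count table and higher in the pair, as were many other genes. *H2-Q6*, *Uggt1*, *Psme1*, *Thop1*, *Rel*, *Ifnar1*, *Ifnar2* and *Ifng*, and below *H2-Ob*, *Cd22* and *Fcer2a*, were chosen after their values were seen.

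Markers of other cells moved with the inhibitor too. MHC class II genes summed to 2740 and 2650 CPM in DMSO and 4111 and 3959 CPM with the inhibitor, and *Cd74* was the most abundant. Of these 10 genes, 8 were higher and 1 was lower (*H2-Ob*). With library totals 0 were lower, and with a replicate block or no filter 2 were. The number lower also moved without DMSO replicate 2 and without inhibitor replicate 3. Of the 10 B cell markers, 7 rose (5 when either DMSO library was left out) and 2 fell (*Cd22* and *Fcer2a*). Myeloid markers summed to 13.96 and 12.6 CPM in DMSO and 42.5 and 35.9 CPM with the inhibitor, with 5 of 7 tested higher, *Cd68* the most abundant and *S100a9* at 0 in all 4 libraries. Dendritic cell markers summed to 44.9 and 45.6 CPM and to 61.1 and 52.8 CPM, with 4 of 5 tested higher and *Batf3* lower; *Batf3* led in DMSO and *Zbtb46* with the inhibitor, and *Clec9a* and *Siglech* were at 0 in DMSO. CD8 and NK markers summed to 15.4 and 15.1 CPM and to 11.02 and 13.0 CPM, with 1 of 5 tested higher (*Klrk1*, or 0 with DESeq2 or without DMSO replicate 3), 2 lower and *Cd8b1* the most abundant. Erythroid markers summed to 7.83 and 7.54 CPM and to 90.0 and 64.6 CPM, with 6 of 7 tested higher, and *Hbb-bs* led with the inhibitor. Sums in the replicate 1 pair, DMSO first, were 274 and 337 FPKM for MHC class II genes and 3.50 and 9.99 FPKM for myeloid markers. Those for dendritic cell markers were 29.9 and 50.5 FPKM, and those for CD8 and NK markers 4.78 and 14.5 FPKM. Erythroid markers summed to 0.931 and 1.94 FPKM. CD8 and NK markers thus went the other way there, and so did B cell markers, at 54.3 and 37.8 FPKM. Of 9 B cell markers with at least 1 FPKM in both libraries, 0 were higher with the inhibitor. The cells had been isolated from spleen with a CD4 T cell kit, a step meant to remove other cells. Other cells express class I genes as well, and the part of these cells in the class I values was not tested.

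Over the 4 libraries of the count table, the genes whose centred log2 CPM lay nearest to *H2-K1* were *Eif4g3* (distance 0.0199), *0610010K14Rik* (0.0209) and *Chmp4b* (0.0211). In the replicate 1 pair *Eif4g3* stood at 22.9 and 24.1 FPKM, *0610010K14Rik* at 52.9 and 26.7 FPKM and *Chmp4b* at 136 and 139 FPKM. Nearest to *Nlrc5* were *Edem2* (0.0128), *Crot* (0.0144) and *Ctnna1* (0.0182).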

How the data were processed

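For replicates 2 and 3 the authors deposited raw read counts per gene. The submitters' processing notes name fastp 0.21.0, HISAT2 2.1.0, StringTie 2.1.5, DESeq2 1.30.1 and build mm10. For replicate 1 the authors deposited normalized values, read as FPKM from their decimals and sums (405150 and 390729) since no source names the unit; the notes name FastQC, HISAT2 and GRCm38.

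The count analysis used edgeR 4.0.16 under R 4.3.3: filterByExpr (minimum count 10, minimum total 15), TMM, the quasi-likelihood test of 2 libraries against 2 without covariates, and Benjamini-Hochberg adjustment over 16269 genes, with a threshold of 0.05. The procedure was run on simulated data in which far fewer genes changed than were called here, so that setting was not covered. The pair got a pseudocount of 1. Alternatives were RLE, upper quartile and library-total scaling, no filter, at least 10 counts in every library, a replicate block, DESeq2 1.42.0, each library left out, and for the pair a pseudocount of 0.1 or division by library medians. Lengths and coordinates came from GENCODE M21, and Python 3.11.15 made the tables.

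The members and lists were chosen with earlier results of these data known. Named genes were the 9 members, at most 4 genes of each list with the smallest p-values, the 3 genes nearest to *H2-K1* and to *Nlrc5* (mean of at least 10 CPM), and *Mapk13*, with *Cd4* for the label and, in the cell marker lists, the most abundant genes and some at 0 counts. Further genes, marked as such in the text, were picked with their values in view. Not every marker is reported individually here.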

Additional observations from a re-analysis of the deposited data

Results flagged for a closer look

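Of the 7 members called in the count table, 5 lay lower in both inhibitor libraries than in both DMSO libraries and were higher with the inhibitor in the replicate 1 pair. The log2 ratio in that pair was 0.31 for *H2-K1*, 0.37 for *H2-D1*, 0.12 for *H2-T23*, 0.0075 for *Tap1* and 0.21 for *Tap2*. In the count table the log2 fold changes of these 5 were -0.94, -1.20, -0.98, -0.53 and -0.31. With no call required, 4343 genes lay lower there without overlap and had at least 1 FPKM in both libraries of the pair. Of these, 40.7% were higher in the pair, so many other genes also show such a contrast. Among the 6 members that fell, 5 were higher in the pair. The rule of no overlap takes in falls of any size. *Nlrc5*, which was not called, also met this rule and was higher in the pair, at 43.2 and 51.9 FPKM. The ratio of *H2-K1* and *H2-D1* to *B2m* likewise moved by 0.22 on the log2 scale in the pair and by -1.04 in the count table. The difference between the library sets was not tested, since the pair has 1 library per group, another protocol and another unit. For *Tap1* the value in the pair is close to 0 and its sign depends on the scaling, and for *H2-T23* division by library medians gave 0.022.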

How the results depend on the processing

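Of 99 values of the 9 members under 11 alternatives to the count fit, 93 kept direction and side of the threshold. *B2m*, never called, changed sign with upper quartile scaling (0.058), library totals (0.10) and at least 10 counts in every library (0.023), and ranged from -0.071 to 0.019 without each library in turn. *Nlrc5* ranged from -0.21 to -0.050 when a library was left out, passed the test without inhibitor replicate 3, and was -0.0018 with library totals. The members' median moved from -0.53 to -0.45 with upper quartile scaling, -0.40 with library totals and -0.48 with at least 10 counts in every library, and ranged from -0.58 to -0.49 without each library. Beyond the scaling and the genes kept, the cause was not tested.

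With the replicate number as a replicate block, 10645 genes changed in place of 10374, and *Nlrc5* passed at -0.13 (edgeR adjusted p = 0.0400). Same-numbered libraries did not deviate together (Pearson r = -0.0064 across genes, which are not independent), so the numbers were not taken to pair the samples. Other counts of changed genes ran from 8624 (DESeq2) to 10943.

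In the replicate 1 pair, division by library medians gave 0.20 for *H2-K1*, 0.27 for *H2-D1*, 0.022 for *H2-T23*, 0.015 for *B2m*, -0.094 for *Tap1* (sign changed), 0.11 for *Tap2*, 0.36 for *Tapbp*, 0.16 for *Nlrc5* and -0.43 for *Erap1*. A pseudocount of 0.1 gave 0.47 for *Tapbp*, 0.27 for *Nlrc5* and -0.34 for *Erap1*. The ratios within libraries, left out 1 library at a time (chosen after seeing the data), ran from -1.08 to -0.999 for *H2-K1* and *H2-D1* to *B2m*. For the genes named by smallest p-value, 640 of 647 values kept direction and call, and *Fcgrt* and *Klrk1* lost theirs in some. *Cd4*, near 0 and not called, changed sign in 6 of 11, with RLE (0.013), upper quartile scaling (0.080), library totals (0.12), at least 10 counts in every library (0.044), DESeq2 (0.013) and without inhibitor replicate 2 (0.041). Among 11 genes chosen after their values were seen, 102 of 121 values kept both, and *H2-Q6*, *Uggt1*, *Psme1*, *Ifnar1* and *H2-Ob* lost theirs in some. The depth of the pair is unknown.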
